A study of Mus musculus with 6 samples.

Results

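The glucocorticoid response was followed here through 9 genes of 45320 in the deposited tables: the receptor Nr3c1, the activating enzyme Hsd11b1, and 7 genes known to respond to the hormone, Fkbp5, Tsc22d3, Zbtb16, Sgk1, Cdkn1a and the metallothioneins Mt1 and Mt2. The genes were listed by name from their known roles, all 9 had an Ensembl identifier in the tables, and all 9 passed the filter on low values. The samples were whole brown adipose tissue of C57BL/6 mice that started a high-fat, high-sugar diet at 4 weeks of age and ate it for 4 weeks before being split into groups. Untreated samples 13, 14 and 15 came from mice that stayed on that diet, and samples 17, 33 and 35, called treated, from mice given the diet with RO5508887, a small-molecule inhibitor of the protease BACE1. Both groups therefore carried the same diet, and no lean control was analysed here. The labels give neither the dose nor the length of dosing, nor whether each sample was a separate animal, nor the time of day at which tissue was taken.

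Glucocorticoids are steroid hormones of the adrenal gland, corticosterone in mice, whose release follows a daily rhythm and rises with stress. Inside the cell the enzyme encoded by Hsd11b1 regenerates the active hormone from its inactive form, and the hormone-bound receptor moves to the nucleus and switches genes on or off. In brown fat glucocorticoids are known to favour lipid storage and to dampen heat production. Metallothioneins are small cysteine-rich proteins that bind zinc and copper. Their genes respond both to metals, through the factor MTF1, and to glucocorticoids.

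The sequences upstream of the start sites were searched for letters that match a hormone or metal element. RefSeq start sites on GRCm38.p6 were found for 7 of the 9 genes. The 250 bases upstream of each start were searched on both strands. The full glucocorticoid response element was searched as AGAACA and TGTTCT with any 3 bases between them, and a relaxed form as GNACA and TGTNC with the same gap. Every full element also counts as a relaxed one. The core of the metal response element was searched as TGCACNC or TGCGCNC. The tumour suppressor p53 binds pairs of short half-sites, for which a pair of CATG cores with any 6 bases between them was searched. These patterns and the stretches shown were chosen after the windows had been seen. Stretches that hold these matches are printed 5′ to 3′ with the matches in capitals, except for 1 metal core of Mt2 that lies outside its stretch. They are Sgk1 chr10:21993671-21993745, Mt1 chr8:94178889-94179078, Mt2 chr8:94172418-94172607 and Cdkn1a chr17:29090901-29090974, all on the plus strand.
Sgk1: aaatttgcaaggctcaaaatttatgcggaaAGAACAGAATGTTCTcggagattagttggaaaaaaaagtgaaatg
Mt1: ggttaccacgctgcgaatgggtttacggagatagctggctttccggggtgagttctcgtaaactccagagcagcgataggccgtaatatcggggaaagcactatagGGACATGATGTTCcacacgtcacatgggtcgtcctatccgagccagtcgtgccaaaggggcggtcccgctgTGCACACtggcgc
Mt2: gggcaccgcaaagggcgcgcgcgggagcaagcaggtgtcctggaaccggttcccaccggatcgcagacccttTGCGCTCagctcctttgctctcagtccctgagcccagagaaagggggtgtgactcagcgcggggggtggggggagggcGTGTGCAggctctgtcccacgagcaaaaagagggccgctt
Cdkn1a: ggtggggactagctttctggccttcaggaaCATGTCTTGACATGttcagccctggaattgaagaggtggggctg

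The full glucocorticoid element occurred in 3 of 32851 upstream windows in the table, or 0.00913%, and 1 of those 3 belonged to Sgk1. It lay 189 to 175 bases before the fifth of 6 Sgk1 start sites. No exon overlapped this stretch, which falls inside 5 longer Sgk1 transcripts. Mt1 carried a relaxed element 94 to 82 bases before its start, a form found in 0.387% of windows. The Mt1 window also held a single metal element core, at 23 to 17 bases. The Mt2 window held 3 metal element cores, the farthest at 223 to 217 bases and not printed, and no glucocorticoid match of either form. Hsd11b1 also held a metal core, at 237 to 231 bases. A metal element core is common, with 21.4% of windows holding at least one. Cdkn1a held the paired CATG at 48 to 35 bases before the first of its 2 starts, a pattern found in 0.490% of windows. Neither form of the glucocorticoid element was found in the windows upstream of Fkbp5, Hsd11b1 or the 3 starts of Tsc22d3. Sequence outside the windows was not searched, so a window without a match does not show that the gene lacks the element. For the same reason the metal core counts of Mt1 and Mt2 hold only for the windows before the start sites used. A match is only a run of letters, and binding was not measured.

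Samples 33 and 35 held the same value for every gene and were counted once, as treated 33/35, which leaves 3 untreated and 2 treated libraries. Low values stepped in units that put the relative depth of the libraries between 0.811 and 1.01 of untreated 13. Skeletal muscle transcripts set the libraries apart. Mitochondrial genes left out, 29 muscle markers held 8.18% of all FPKM in untreated 14. Their share was 3.22% in treated 17 and 1.43% in treated 33/35, and no more than 0.0319% in untreated 13 and 15. All 15 brown adipocyte markers were detected in every library, and their summed share was 0.669% in untreated 14 against 1.39% to 1.80% in the other 4. Endothelial and fibroblast markers were detected in every library, and of 10 macrophage and T cell markers only Cd3d was at 0, in untreated 14. The fibroblast sum was lowest in untreated 15, at 227 FPKM against 456 to 711 FPKM elsewhere. In whole tissue, fewer cells of a type and less RNA per cell cannot be told apart.

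None of the 9 genes passed the test between treated and untreated libraries, in either direction. FPKM are fragments of a gene per transcript length and sequencing depth. The test was limma on log2(FPKM + 0.5), with an adjusted p under 0.05 as the threshold. Over all 13527 genes tested 0.0444% passed, 4 of them (0.0296%) higher and 2 (0.0148%) lower with the drug. Of the 9 members, 1 had an unadjusted p under 0.05 in that fit, against 125 of all tested genes. Fkbp5 was lower and Sgk1 was higher in both treated libraries than in every untreated one. Over all tested genes 8.68% did not overlap between the groups, 3.18% as lower and 5.5% as higher. The other 7 members overlapped between the groups.

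Values of single libraries are given from here on in the order untreated 13, 14, 15 and treated 17, 33/35. The receptor had the smallest range of the 9 genes. Nr3c1 (chromosome 18, 39410545 to 39519421, GRCm38) measured 37.8, 31.0 and 30.8 FPKM untreated and 36.8 and 32.9 FPKM treated. The groups overlapped, and the highest library was 1.23 times the lowest. The untreated mean was 33.2 ± 3.97 FPKM (SD, n = 3), and the treated mean was 34.9 ± 2.81 FPKM (SD, n = 2). Treated minus untreated came to 0.07 on the log2 scale (SE 0.17, 95% interval -0.38 to 0.52, adjusted p = 1 by limma). Of all tested genes, 12.2% had a smaller range over the 5 libraries on the log2 scale.

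The activating enzyme varied much more than the receptor. Hsd11b1 (chromosome 1, 193221634 to 193264075) measured 40.3, 14.0 and 53.1 FPKM untreated and 56.1 and 33.2 FPKM treated. It was lowest in untreated 14, the library with the most muscle and the least brown fat marker RNA, and the part of that makeup in its level was not tested. Treated minus untreated was 0.47 in log2 (SE 0.65, 95% interval -1.22 to 2.15, adjusted p = 1 by limma). This value was -0.098 without untreated 14, 0.091 without treated 17 and 0.85 without untreated 15. Hsd11b2, which encodes the enzyme that inactivates the hormone, was at most 0.0505 FPKM in any library.

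**Figure D1:**
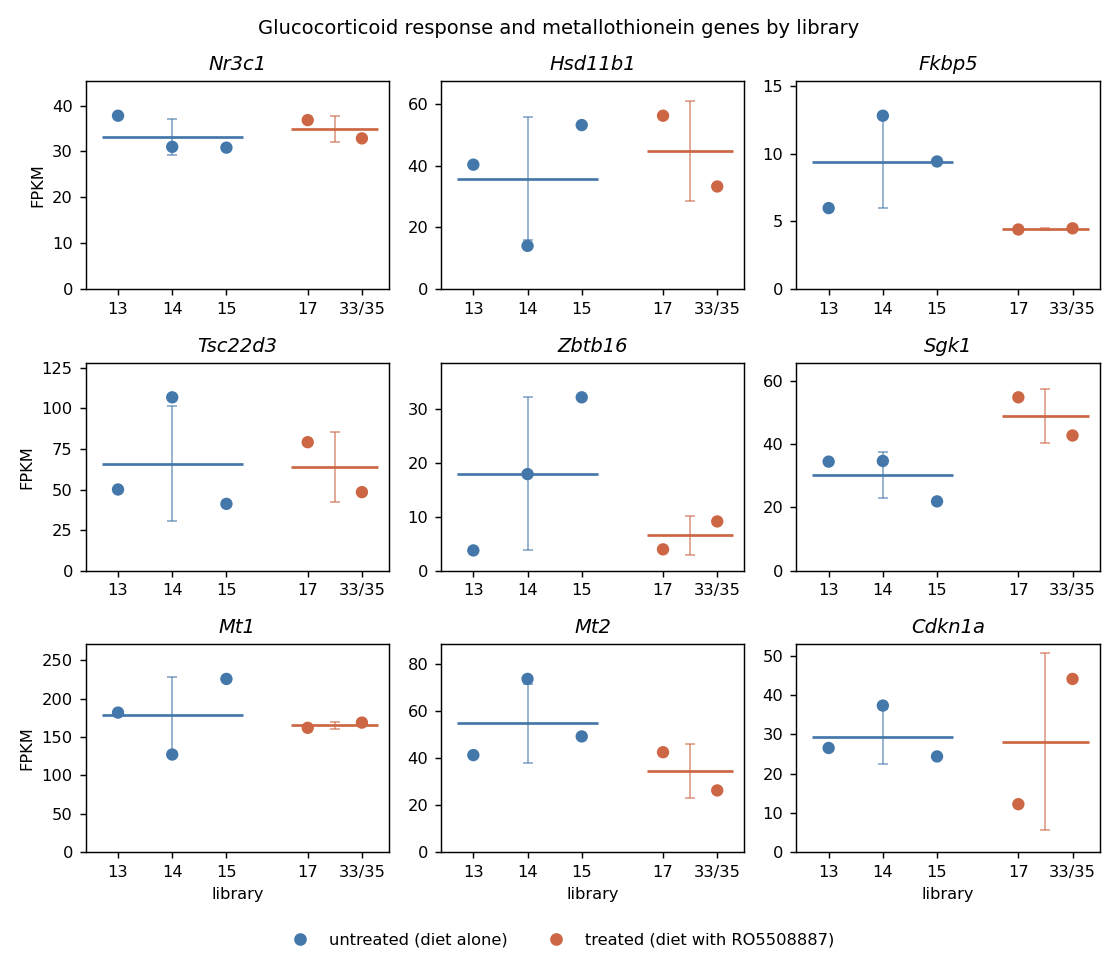
Level of each of the 9 genes (y axis, FPKM, from 0) in the 5 libraries (x axis), with the group mean as a horizontal line and ± 1 SD as a thin bar. Fkbp5 is the gene with both treated points below all untreated points, and Sgk1 the gene with both above them.

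Fkbp5 encodes a co-chaperone that binds the receptor complex and lowers its affinity for hormone, and it is among the most widely used readouts of receptor activity. Fkbp5 (chromosome 17, 28399094 to 28517527) measured 5.98, 12.8 and 9.42 FPKM untreated and 4.40 and 4.49 FPKM treated. Both treated libraries lay below all untreated ones and were close to each other, whereas the untreated libraries spread widely. The means were 9.40 ± 3.41 FPKM (SD, n = 3) and 4.45 ± 0.0614 FPKM (SD, n = 2). In log2 the treated mean was lower, at -0.94 (SE 0.33, 95% interval -1.81 to -0.066, adjusted p = 1 by limma), and 101 tested genes had a smaller p. Without untreated 14, its highest library, the difference was -0.70 (SE 0.23, adjusted p = 0.362 by limma). The muscle share was highest in untreated 14, where Fkbp5 was highest, and higher in both treated libraries than in untreated 13 and 15, where Fkbp5 was above the treated values. The part of muscle in the level of Fkbp5 was not tested.

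Sgk1 encodes a kinase that regulates ion channels and transporters and responds to glucocorticoids, mineralocorticoids, insulin and osmotic stress. Sgk1 (chromosome 10, 21882184 to 21999903) went the other way from Fkbp5. It measured 34.4, 34.6 and 21.9 FPKM untreated and 54.7 and 42.7 FPKM treated. Both treated libraries were above all untreated ones, with means of 30.3 ± 7.30 FPKM (SD, n = 3) and 48.7 ± 8.52 FPKM (SD, n = 2). The log2 difference was 0.69 (SE 0.28, 95% interval -0.037 to 1.43, adjusted p = 1 by limma). Leaving out single libraries gave 0.48 (without untreated 15) to 0.87 (without treated 33/35). Sgk1 and Fkbp5 were thus separated between the groups in opposite directions, and neither passed the test.

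Tsc22d3, also called GILZ, encodes a leucine zipper protein that mediates anti-inflammatory effects of the hormone. Tsc22d3 (chromosome X, 140539528 to 140600659) measured 50.0, 107 and 41.2 FPKM untreated and 79.2 and 48.4 FPKM treated. The 2 highest libraries, untreated 14 and treated 17, were from different groups and were also the 2 with the most muscle marker RNA. The part of muscle in this level was not tested. The groups overlapped, with a log2 difference of 0.04 (SE 0.50, 95% interval -1.26 to 1.33, adjusted p = 1 by limma). The sign turned to -0.32 without treated 17, -0.24 without untreated 15 and -0.099 without untreated 13, and the value was 0.44 without untreated 14.

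Zbtb16, which encodes the zinc finger factor PLZF, had the widest range of the 9 genes. Zbtb16 (chromosome 9, 48654297 to 48836222) measured 3.77, 17.9 and 32.2 FPKM untreated and 3.97 and 9.15 FPKM treated. The highest library was 8.54 times the lowest, and both of these were untreated. These libraries, untreated 13 and 15, had muscle shares of 0.0319% and 0.0300% and fibroblast sums of 597 and 227 FPKM. The part of tissue makeup in the level of Zbtb16 was not tested. Between groups the log2 difference was -1.06 (SE 0.97, 95% interval -3.59 to 1.46, adjusted p = 1 by limma). It was -1.90 without untreated 13, -1.62 without treated 33/35, -0.51 without treated 17 and -0.43 without untreated 15.

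Cdkn1a encodes p21, an inhibitor of the cell cycle kinases that is induced by p53 as well as by glucocorticoids. Cdkn1a (chromosome 17, 29090976 to 29100727) measured 26.5, 37.3 and 24.4 FPKM untreated. The treated libraries were its extremes, with 12.2 FPKM in treated 17 and 44.1 FPKM in treated 33/35. The treated mean of 28.2 ± 22.5 FPKM (SD, n = 2) was close to the untreated mean of 29.4 ± 6.94 FPKM (SD, n = 3). The log2 difference of -0.30 (SE 0.58, 95% interval -1.83 to 1.23, adjusted p = 1 by limma) became 0.60 without treated 17 and -1.21 without treated 33/35. Of 18 listed p53 target genes 16 were tested and 0 passed, with a median log2 fold change of 0.04 against 0.06 over all tested genes. Plk3, a stress kinase, measured 1.68, 0.754 and 0.948 FPKM untreated and 3.66 and 4.42 FPKM treated. Btg2, an antiproliferative gene, measured 9.73, 13.1 and 8.29 FPKM untreated and 14.4 and 28.1 FPKM treated. Mdm2, the p53 target that encodes its main inhibitor, stayed between 17.6 and 21.5 FPKM, but others on the list spanned more. Gadd45a ran from 1.93 to 40.6 FPKM and Ccng1 from 63.6 to 255 FPKM, both highest in untreated 14. That library was the highest for 8 of the 16 tested and the lowest for 7. Of all 13527 tested genes it was the highest for 4534 and the lowest for 5943.

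**Figure D2:**
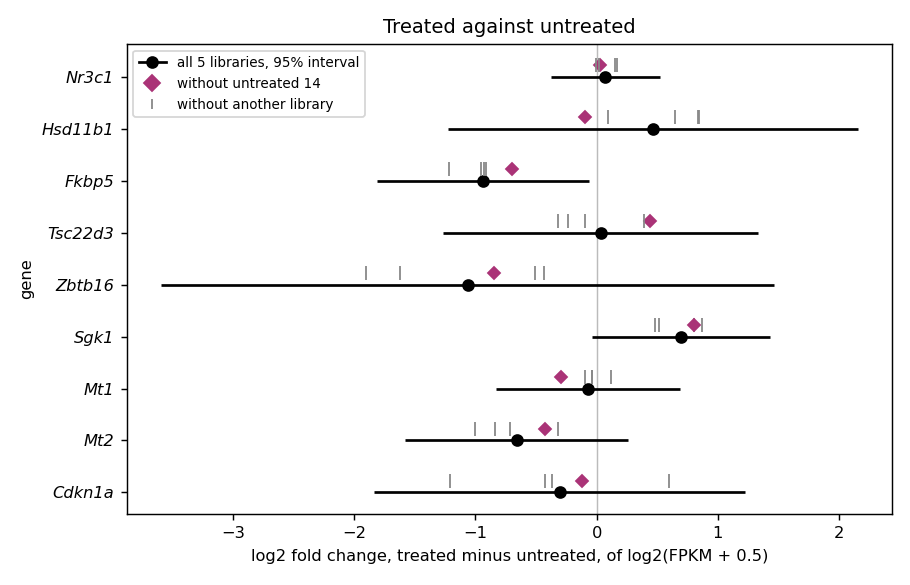
Log2 fold change of each gene, treated minus untreated (x axis), for the 9 genes (y axis), with the black bar as the 95% interval over all 5 libraries. Purple diamonds leave out untreated 14 and grey ticks leave out one of the others. The interval for Fkbp5 ends at -0.066, below 0, and the intervals of the other 8 genes include 0.

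The 2 metallothionein genes did not follow each other across the libraries, although they lie side by side. Mt2 (chromosome 8, 94172664 to 94173568) and Mt1 (94179082 to 94180327) are 5513 bases apart on the same strand. Mt1 measured 182, 127 and 226 FPKM untreated and 162 and 169 FPKM treated. Mt2 measured 41.3, 73.6 and 49.2 FPKM untreated and 42.5 and 26.3 FPKM treated. Untreated 14 was thus the lowest library for Mt1 and the highest for Mt2. The ratio of Mt1 to Mt2 was 1.73 in untreated 14, between 3.81 and 4.58 in untreated 13, untreated 15 and treated 17, and 6.42 in treated 33/35. Because both values come from the same library, this ratio does not depend on how libraries are scaled.

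For Mt1 the log2 difference was -0.07 (SE 0.29, 95% interval -0.83 to 0.69, adjusted p = 1 by limma). For Mt2 it was -0.66 (SE 0.35, 95% interval -1.58 to 0.26, adjusted p = 1 by limma). Mt2 stayed negative with each single library left out, at -1.0 without treated 17, -0.43 without untreated 14 and -0.32 without treated 33/35. Mt1 turned to 0.12 without untreated 15 and was -0.29 without untreated 14. The longest Mt1 and Mt2 coding transcripts in GENCODE M21 shared no identical run longer than 20 bases. Mt2 overlaps the antisense gene Gm45774, which had no row in the tables. Whether counting used strand is not given in the sources used here, so reads of the 2 cannot be told apart. Fkbp5, Hsd11b1 and Cdkn1a also overlap genes on the opposite strand. At Hsd11b1 the overlapping gene Lamb3 measured 2.54 to 4.20 FPKM.

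**Figure D3:**
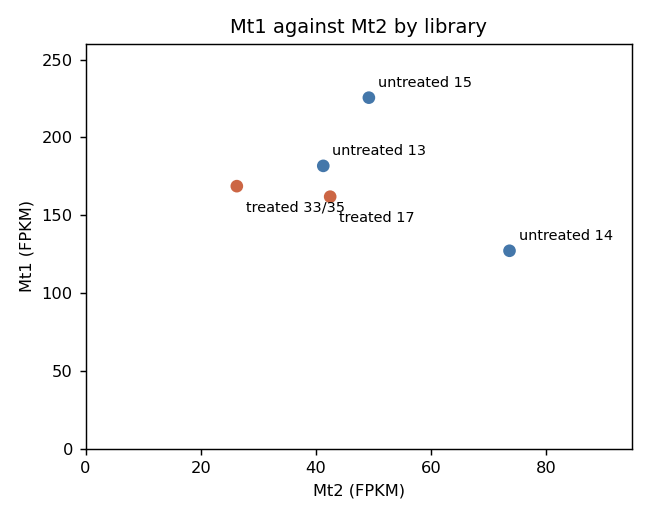
Mt1 (y axis, FPKM) against Mt2 (x axis, FPKM), one point per library, blue for untreated and orange for treated, both axes from 0. Untreated 14 is lowest in Mt1 and highest in Mt2, and treated 33/35 is lowest in Mt2.

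Other genes of metal handling did not pass the test. Of 22 listed genes 18 were tested and 0 passed, with a median log2 fold change of 0.04. Mtf1, the metal-sensing factor that drives both metallothioneins, stayed between 4.38 and 6.31 FPKM. Slc30a1, a zinc exporter and a target of MTF1, stayed between 3.91 and 5.57 FPKM. Slc30a7, a zinc transporter of the secretory pathway, measured 4.06, 2.25 and 2.27 FPKM untreated and 3.88 and 4.54 FPKM treated. Hmox1, a haem-degrading enzyme induced by oxidative stress, measured 9.98, 15.9 and 8.22 FPKM untreated and 8.08 and 7.46 FPKM treated. Like Mt2, it was highest in untreated 14 and lowest in treated 33/35. Of the remaining metallothioneins, Mt4 was listed at 0 in all libraries and Mt3 was at most 1.10 FPKM.

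The 7 targets were not high or low in the same libraries. Each value was set against the gene's own mean over the 5 libraries on the log2 scale. Above their own mean were 5 of 7 targets in untreated 14, 4 in untreated 15, 2 in treated 17, 2 in treated 33/35 and 1 in untreated 13. Fkbp5, Tsc22d3 and Mt2 were highest in untreated 14, Zbtb16 and Mt1 in untreated 15, Sgk1 in treated 17 and Cdkn1a in treated 33/35. The exceptions in untreated 14 were Mt1, at -0.42, and Sgk1, at -0.06, while the median of the targets there was 0.73. The same median over all tested genes in untreated 14 was -0.07, and 44.4% of them were above their own mean there. Untreated 14 was the highest library for 3 of the 7 targets and for 4534 of all 13527 tested genes. It was the highest or lowest library for 57.1% of the targets and for 77.5% of all tested genes. In the other libraries the median of the targets was 0.16 in untreated 15, -0.10 in untreated 13, -0.07 in treated 17 and -0.08 in treated 33/35. In none of the 5 libraries were all 7 targets on the same side of their mean.

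**Figure D4:**
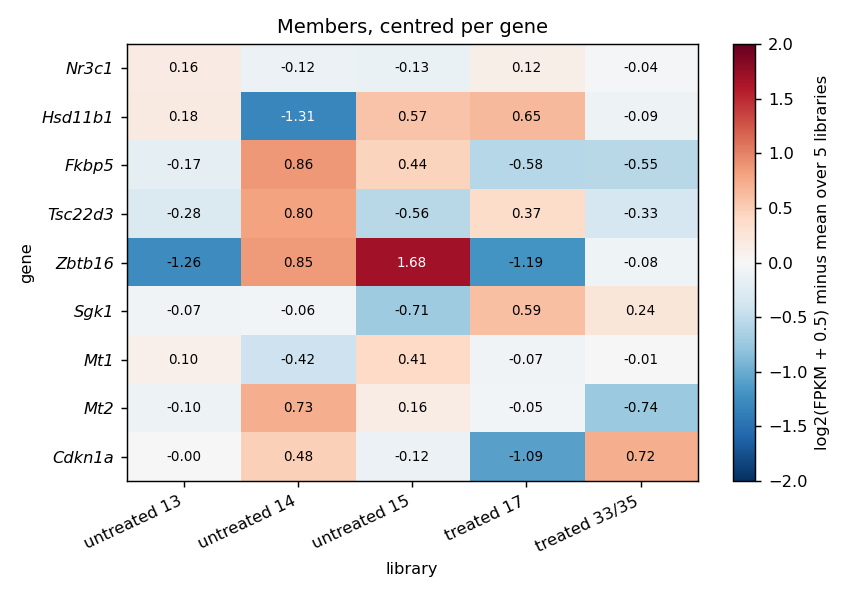
Each gene's log2(FPKM + 0.5) minus its mean over the 5 libraries (colour and printed value), genes in rows and libraries in columns. Red and blue cells are mixed in every column. Untreated 14 has the most targets above their mean, 5 of 7, beside 44.4% of all tested genes.

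Likeness was measured as the root mean square difference of these centred log2 values over the 5 libraries, of which untreated 14 was the highest or lowest for 77.5% of tested genes. Among 11442 named genes the 3 nearest to Fkbp5 were Tnfrsf18, at 0.14, Mt2, at 0.29, and Efna1, at 0.29. Tnfrsf18 encodes GITR, a receptor whose own name refers to induction by glucocorticoids. It measured 1.32, 2.98 and 1.79 FPKM untreated and 1.03 and 0.843 FPKM treated. Only 5 tested genes of any kind were nearer to Fkbp5 than Mt2 was. Without untreated 14, where 13368 genes were tested, this number was 1075, so the rank of Mt2 depended most on that library. The number was 124 without untreated 15, 42 without treated 33/35, 12 without untreated 13 and 2 without treated 17. Other targets were farther from Fkbp5. For Tsc22d3 42.6% of tested genes were nearer, for Mt1 52.6%, for Cdkn1a 55.8%, for Zbtb16 74.8% and for Sgk1 83.2%. These shares depend on the gene they start from. Counted from Zbtb16, 15 tested genes (0.11%) were nearer than Fkbp5.

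Likeness was read for 3 further members. Among those nearest to Tsc22d3 was Socs6, at 0.058, which encodes a suppressor of cytokine signalling. Sft2d3, Dop1a and Phf3 were nearest to Mt1, at 0.030, 0.033 and 0.036. For Mt1, 83.8% of tested genes were nearer than its neighbour Mt2. Counted from Mt2, 58.5% were nearer than Mt1. Zdhhc12, Dtx4 and Fam129c were nearest to Cdkn1a, at 0.24, 0.29 and 0.30.

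Further glucocorticoid target genes were taken from a list of 30. Of 29 tested, the log2 mean of 18 was higher in treated libraries and that of 11 lower, beside 8704 higher of all 13527 genes tested. None passed in limma, where 3 had an unadjusted p under 0.05. The median log2 fold change was 0.13, against 0.06 over all tested genes. Gadd45g, a growth arrest gene, measured 26.5, 23.6 and 28.4 FPKM untreated and 50.5 and 50.1 FPKM treated, a log2 difference of 0.93 (SE 0.16, adjusted p = 1 by limma). Dusp1, a phosphatase that shuts off MAP kinases, measured 23.4, 42.2 and 23.4 FPKM untreated and 50.5 and 91.7 FPKM treated. Errfi1, a feedback inhibitor of the EGF receptor, measured 15.5, 12.5 and 6.62 FPKM untreated and 24.4 and 21.2 FPKM treated. These 3 genes were higher in both treated libraries than in all untreated ones.

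Other targets on that list lay lower or overlapped. Klf15, a factor of amino acid and lipid metabolism, measured 20.1, 27.2 and 15.2 FPKM untreated and 14.7 and 8.82 FPKM treated. Klf9, a direct receptor target, measured 43.8, 46.8 and 45.0 FPKM untreated and 43.7 and 35.0 FPKM treated. Both genes were lower in both treated libraries than in all untreated ones, but by a small margin. Klf9 was 43.7 FPKM in treated 17 and 43.8 FPKM in untreated 13. Of the 29 tested, 3 were separated as lower and 3 as higher, beside 3.18% and 5.5% of all tested genes. Per1, a clock gene with a glucocorticoid element, measured 18.4, 12.6 and 18.5 FPKM untreated and 26.1 and 14.1 FPKM treated, so its groups overlapped. Rgs2, a regulator of G protein signalling, measured 47.5, 6.20 and 22.3 FPKM untreated and 35.9 and 67.0 FPKM treated. Tiparp measured 15.0, 8.82 and 20.0 FPKM untreated and 17.7 and 23.9 FPKM treated. Without untreated 14, 3 of the 29 genes passed as higher, Gadd45g (limma adjusted p = 0.0444), Trim63 (0.0198) and Fbxo32 (0.0176). Of all 13368 genes tested in that fit, 149 passed as higher. Trim63 and Fbxo32 encode ubiquitin ligases of muscle wasting, and all 29 muscle markers passed as higher in that fit too. In all 5 libraries Trim63 measured 0.142, 100.1 and 0.0367 FPKM untreated and 22.5 and 12.0 FPKM treated. Fbxo32 measured 2.57, 66.0 and 2.41 FPKM untreated and 11.7 and 10.6 FPKM treated. Both genes were highest in untreated 14, then treated 17 and treated 33/35, the order of the muscle share. The part of muscle in the levels of Trim63 and Fbxo32 was not tested.

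Genes that hold or modify the receptor did not pass either. Of 16 listed genes 15 were tested and 0 passed, with a median log2 fold change of -0.05. Fkbp4, the co-chaperone that competes with the Fkbp5 product on the receptor complex, measured 89.8, 79.7 and 70.6 FPKM untreated and 60.4 and 60.2 FPKM treated. Its log2 difference was -0.40 (SE 0.17, adjusted p = 1 by limma). Stip1, which links HSP70 and HSP90, measured 61.0, 56.9 and 42.4 FPKM untreated and 39.7 and 36.8 FPKM treated. Hsp90ab1, the constitutive HSP90, measured 561, 552 and 497 FPKM untreated and 409 and 433 FPKM treated. All 3 were lower in both treated libraries than in any untreated one. Of the 15 tested, 3 were separated as lower and 1 as higher, beside 3.18% and 5.5% of all tested genes. Fkbp4 and Stip1 were named for the smallest p of the list and Hsp90ab1 after its values were seen.

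Genes that mark acute stimulation and time of day were read beside the targets. Of 12 immediate early genes, transcribed within minutes of a stimulus, 12 were above their own mean in both treated libraries. Of these 12, 10 were higher in both treated than in all untreated libraries, beside 5.5% of all tested genes. Fosb measured 1.42, 1.21 and 0.744 FPKM untreated and 21.1 and 18.7 FPKM treated (limma adjusted p = 0.0665). Klf2 measured 13.9, 10.5 and 11.9 FPKM untreated and 36.3 and 46.4 FPKM treated (limma adjusted p = 0.579). Of all tested genes 52.2% were above their own mean in treated 17 and 64.8% in treated 33/35. In each of these libraries 2 of the 7 glucocorticoid targets were above their mean, Sgk1 and Tsc22d3 in treated 17 and Sgk1 and Cdkn1a in treated 33/35.

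Clock genes set treated 33/35 apart from the other 4 libraries. Dbp, an output gene of the clock, measured 39.2, 62.3 and 40.0 FPKM in untreated 13, 14 and 15, 60.2 FPKM in treated 17 and 7.63 FPKM in treated 33/35. Per2, a repressor within the clock, measured 12.0, 7.70, 11.4, 12.3 and 2.54 FPKM in the same order. Arntl, the activator that peaks opposite to Dbp, measured 1.89, 2.89, 0.958, 0.789 and 6.62 FPKM. Treated 33/35 was the highest or lowest library for 13 of 18 tested clock genes, 72.2%, and for 28.5% of all tested genes. Of the targets it was an extreme for Cdkn1a, as the highest, and for Mt2, as the lowest. Treated 17 lay near the other end of the range from treated 33/35 in Dbp, Per2 and Arntl. Between the groups, Nr1d1, a clock repressor, measured 79.3, 91.0 and 95.9 FPKM untreated and 76.9 and 44.4 FPKM treated. Cry1 measured 3.27, 4.53 and 3.68 FPKM untreated and 4.74 and 4.82 FPKM treated. None of the 18 clock genes passed the test between groups. The time of tissue collection is not in the labels, and its part in the levels of the targets was not tested.

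**Figure D5:**
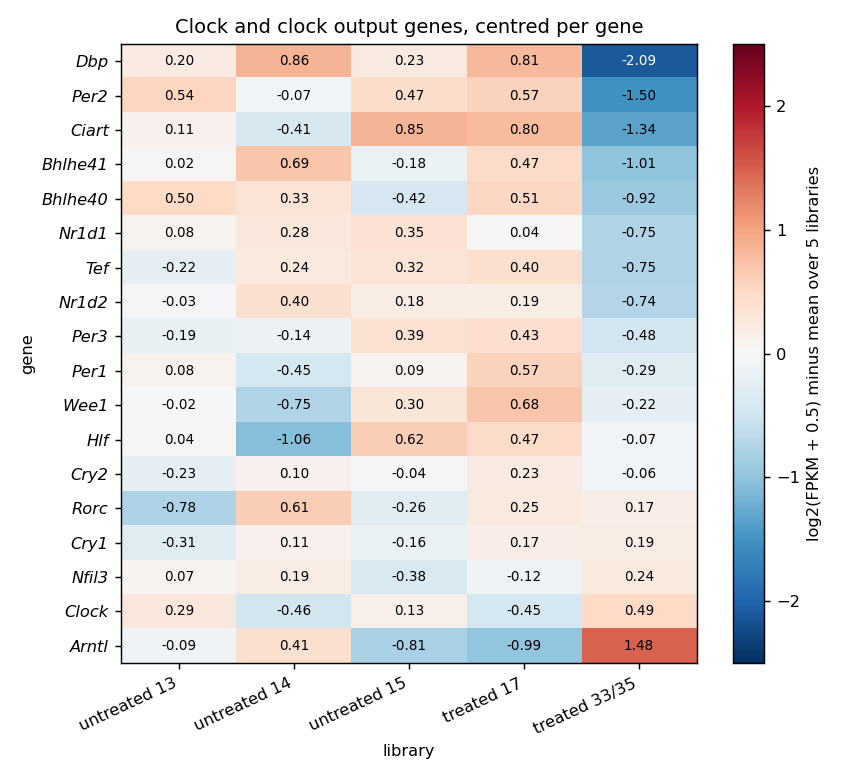
Clock and clock output genes that passed the filter, in rows, with log2(FPKM + 0.5) minus the gene's mean over the 5 libraries as colour and printed value. The column of treated 33/35 runs from -2.09 for Dbp to 1.48 for Arntl, and the other 4 columns span less.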

How the data were processed

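The authors deposited 1 table of FPKM values per sample, per the file headers, for 45320 Ensembl identifiers. Per the labels' protocols, total RNA isolated with Trizol went into Illumina libraries. The submitters' processing notes list CASAVA 1.7 and GRCm38. The quantification program, annotation release and strand setting are not given in the sources used here. GENCODE M21 (GRCm38) supplied names and coordinates for 44395 identifiers. The identical values of samples 33 and 35 were used once. Genes averaging 1 FPKM or more were fitted on log2(FPKM + 0.5) with limma 3.58.1 in R 4.3.3 (empirical Bayes with a variance trend, residual df 3, two-sided, Benjamini-Hochberg). The script was tested on simulated data. Tables and plots were made in Python 3.11.15 (pandas 2.3.3, numpy 2.4.6, matplotlib 3.10.9). FPKM hold no read totals, so no counting intervals were given. The labels do not say that samples are separate animals, so p-values may measure technical spread only. All members passed the filter, so the planned permutation test for untested members was not needed. Members and lists were chosen with earlier results of these data known. Named were all members, the 3 genes most like Fkbp5, Tsc22d3, Mt1 and Cdkn1a, Per1, Dusp1 and Klf9, and the genes of smallest p in each list (6 further targets, 2 elsewhere). Of the genes most like Tsc22d3, only Socs6 is reported here. Motifs were chosen after the promoter windows were seen. Mdm2, Gadd45a, Ccng1, Mtf1, Slc30a1, Mt3, Mt4, Hsd11b2, Hsp90ab1, Trim63, Fbxo32, Lamb3, Cd3d, Dbp, Per2 and Arntl were named after their values were seen. Alternatives changed the pseudocount, filter, scaling, variance model, weights, the duplicate tables and the libraries.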

Additional observations from a re-analysis of the deposited data

How the results depend on the processing

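None of the 9 members passed under any of 15 alternative settings, and Fkbp5, Zbtb16 and Mt2 stayed lower and Sgk1 higher under all 15. Fkbp5 ranged from -1.22 to -0.70 with single libraries left out, and its adjusted p from 0.362 to 1 over all settings. Values that changed sign were Nr3c1 (-0.040 with median centring, -0.016 with sample weights) and Tsc22d3 (-0.077 with median centring, -0.082 with samples 33 and 35 counted separately). With single libraries left out the ranges were -0.0088 to 0.17 for Nr3c1, -0.098 to 0.85 for Hsd11b1, -0.32 to 0.44 for Tsc22d3, -0.29 to 0.12 for Mt1, -1.21 to 0.60 for Cdkn1a and -0.20 to 0.67 for Per1. Genes named for likeness also changed sign. Socs6 was at -0.098 with quantile normalization, -0.085 with median centring and -0.077 with 33 and 35 separate, and ran from -0.29 to 0.45 without single libraries. Sft2d3 ranged from -0.35 to 0.079, Dop1a from -0.28 to 0.11, Phf3 from -0.23 to 0.16, Zdhhc12 from -0.71 to 0.52, Dtx4 from -0.67 to 0.96 and Fam129c from -0.75 to 0.52 without single libraries. With only untreated libraries left out, the lower ends were -0.42 for Cdkn1a, -0.047 for Dtx4 and -0.38 for Fam129c, and the upper ends 0.32 for Per1 and 0.15 for the further target median. With 33 and 35 separate Phf3 was at 0.0060, Zdhhc12 at 0.11 and Fam129c at 0.096, and Dtx4 was at -0.055 with quantile normalization. Over all genes, 4 higher calls became 0 with a pseudocount of 0.1, with no filter or with a filter of 5 FPKM, and 7 with weights or with 33 and 35 separate. The 2 lower calls became 0 with no filter and 1 with a filter of 5 FPKM. Without single libraries the counts ran from 0 to 149 higher and 0 to 9 lower, the highest of both without untreated 14. Median centring moved the median of all genes from 0.061 to -0.051. The further target list had 0 to 3 higher calls and a median of 0.0013 to 0.27 without single libraries, and -0.011 with weights. Fosb passed under 5 settings and Gadd45g and Klf2 under 1, without untreated 14. The number of targets above their mean in untreated 13 was 2 with a pseudocount of 0.1 and with median centring, and 1 to 3 without single libraries; in treated 33/35 it was 2 to 4. These per-library settings were added after the data were seen. The number of genes nearer to Fkbp5 than Mt2 was 35 with quantile normalization. The cause of these changes was not tested. No paired analysis was possible because the groups share no replicate numbers. A fit without treated 17 or 33/35 assumes that the remaining treated library varies like the untreated ones.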
